A study of Gallus gallus with 20 samples.

Results

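Bradykinin receptors and their precursor protein were followed through the chicken liver as 3 genes: BDKRB1 and BDKRB2, which encode the B1 and B2 bradykinin receptors, and KNG1, which encodes kininogen. All 3 symbols were found among the 13956 entries of the count table that carry a gene symbol. All 3 also passed the filter on low counts, with 10694 other genes, which makes 10697 genes tested. BDKRB2 was chosen by measured values, being among the genes with the most negative log2 fold change in Cornish against Ogye at 10 weeks, with no overlap between the libraries. BDKRB1 and KNG1 were taken as its partners by symbol. Everything measured for these genes between the breeds at 10 weeks is therefore given as a description, without a test.

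Kinins are short peptides cut from kininogen, a protein that the liver secretes into plasma. In mammals the B2 receptor is present in many resting tissues, among them endothelium and smooth muscle, and binds the whole peptide. The B1 receptor is scarce at rest, is induced during inflammation and prefers kinins that have lost their last arginine. Both receptors act through G proteins, and peptidases soon break kinins down. In chickens the roles of the genes named here are taken over from mammals.

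Total RNA of liver was sequenced from Cornish, a meat breed, and Ogye, a native Korean breed, each sampled at both 10 and 5 weeks. They are Cornish at 10 weeks, Ogye at 10 weeks, Cornish at 5 weeks and Ogye at 5 weeks, with 5 libraries each. No treatment is given. The labels do not say whether each library stands for its own bird, so a p-value here reflects spread among libraries that may be technical. Levels are CPM (counts of a gene scaled to 1e+06 counts of named genes, after TMM), and changes are log2 fold changes ± standard error (SE).

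Libraries held 14865637 to 31848768 counts. Hepatocyte markers summed to between 135700 and 402200 CPM in every library. Albumin (ALB) was the highest of them by its mean over all libraries. Replicates 3, 4 and 5 of Ogye at 5 weeks stood apart, with scores of 94.8 to 99.1 on the first principal component against at most 5.91 in the other 17 libraries. In these 3 libraries expression relative to each gene's median over all libraries fell with gene length, taken as the RefSeq span. The Spearman correlation across genes was -0.61 to -0.60, against -0.15 to 0.36 in the others. Results for the receptors and kininogen that rest on these 3 libraries are given with and without them. The same holds for most counts of other genes at 5 weeks. Leaving them out keeps only replicates 1 and 2 of Ogye at 5 weeks, so a call can also be lost through fewer libraries. Breed follows the labels. Of 178 tested genes whose breeds did not overlap at either age, 176 differed in opposite directions at 10 and at 5 weeks. From the table a breed difference that turns with age and an exchange of the breed labels at one age cannot be told apart. Under an exchange the breed directions at that age would turn, and the age changes given here would be between breeds as well as ages.

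BDKRB1 and BDKRB2 lie side by side on chromosome 5 of the build GRCg7b. RefSeq places BDKRB2 at 45869921 to 45891677 and BDKRB1 at 45894805 to 45897638, with 3127 bases between the spans. KNG1 lies on chromosome 9 at 15869644 to 15886989. All 3 are annotated as protein-coding. RefSeq also annotates a non-coding RNA that overlaps BDKRB2 and the protease gene SENP5, whose span holds KNG1. Neither symbol was matched in the count table. As the strand setting of the counting is not known, reads of such partners cannot be told apart from those of BDKRB2 and KNG1.

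Kininogen was not called between the breeds at 5 weeks by edgeR, and it was higher at 10 weeks than at 5 weeks in both. KNG1 stood at 3199, 3428, 3101, 2634 and 3213 CPM in replicates 1 to 5 of Cornish at 10 weeks. It stood at 3564, 3023, 3072, 3234 and 2806 CPM in those of Ogye at 10 weeks. All 10 libraries of the older birds lay above every library of the younger ones.

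At 5 weeks KNG1 was at 1637, 2082, 1993, 2046 and 1849 CPM in Cornish. In Ogye at 5 weeks it was at 2471, 2026, 1551, 1442 and 1539 CPM, with the lower values in the 3 libraries that stood apart. The groups ranked Ogye at 10 weeks, Cornish at 10 weeks, Cornish at 5 weeks and Ogye at 5 weeks by their means. In that order Cornish at 10 weeks and Cornish at 5 weeks were separated, and the other neighbours overlapped.

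In Cornish KNG1 averaged 3115 ± 294 CPM at 10 weeks and 1921 ± 182 CPM at 5 weeks (SD, n = 5 each). This was a rise with age by 0.70 ± 0.16 on the log2 scale (adjusted p = 0.014, edgeR quasi-likelihood test), 1.62-fold. In Ogye it averaged 3140 ± 282 CPM at 10 weeks and 1806 ± 436 CPM at 5 weeks, a rise by 0.80 ± 0.16 (adjusted p = 0.00074). Without the 3 libraries the rise in Ogye was 0.49 ± 0.18 and was no longer called (adjusted p = 0.076), while that in Cornish was 0.70 ± 0.13 (adjusted p = 0.0029). Between the breeds at 5 weeks the difference was 0.09 ± 0.16 (adjusted p = 0.69), with a 95% interval of -0.24 to 0.42. It was called by limma-voom (0.33, adjusted p = 0.034), and its sign turned without the 3 libraries (-0.23 ± 0.17, adjusted p = 0.61). At 10 weeks the fitted difference was -0.01 ± 0.16, given as a description.

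BDKRB1 was lower in Cornish than in Ogye at 5 weeks, and rose with age in Cornish. In Cornish at 5 weeks it had 3, 4, 4, 4 and 3 counts, equal to 0.146, 0.171, 0.195, 0.176 and 0.141 CPM. In Ogye at 5 weeks it had 32, 39, 24, 4 and 35 counts, or 1.58, 1.69, 1.52, 0.264 and 2.60 CPM. All 5 Cornish libraries were below all 5 Ogye libraries, though replicate 4 of Ogye came close to them with as few counts.

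The log2 fold change of BDKRB1 at 5 weeks was -3.15 ± 0.64 (adjusted p = 0.0075, 95% interval -4.49 to -1.80), from means of 0.166 ± 0.0226 CPM in Cornish against 1.53 ± 0.834 CPM in Ogye. Of the 3 genes 1, BDKRB1, was called at 5 weeks. This comparison called 19.1% of all tested genes, 6.75% higher and 12.3% lower in Cornish, and the breeds did not overlap for 6.85%, with Cornish lower for 3.7%. In the fit without the 3 libraries, which called 0.904% of genes, its log2 fold change was -3.24 ± 0.68 (adjusted p = 0.035). That fit rests on replicates 1 and 2 of Ogye, with 32 and 39 counts. It also drops replicate 4, the Ogye library that came close to Cornish. Counts are few, and the means of all libraries rest on 18 counts in Cornish and 134 in Ogye. In bulk tissue fewer cells that carry a transcript and less transcript per cell cannot be told apart.

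At 10 weeks BDKRB1 had 9, 95, 33, 91 and 18 counts in Cornish, or 0.691, 6.85, 2.07, 6.53 and 1.86 CPM. Replicates 2 and 4 were far above the other 3. In Ogye at 10 weeks it had 20, 3, 9, 6 and 12 counts, or 1.67, 0.335, 0.665, 0.605 and 1.09 CPM. The means were 3.60 ± 2.87 CPM in Cornish and 0.872 ± 0.519 CPM in Ogye, and the libraries overlapped. The fitted difference was 2.02 ± 0.57 on the log2 scale, given as a description, and it had the opposite sign to that at 5 weeks.

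With age BDKRB1 rose in Cornish by 4.38 ± 0.65 on the log2 scale (adjusted p = 0.00087), and all libraries at 10 weeks were above all at 5 weeks. BDKRB1 and KNG1 were both called in Cornish, where 7.36% of all tested genes were called, 4.07% of all genes as higher at 10 weeks. The ages did not overlap for 16.3%, with 10 weeks higher for 8.74%. In Ogye BDKRB1 changed by -0.79 ± 0.57 (adjusted p = 0.27, 95% interval -1.99 to 0.41), and the ages overlapped. Without the 3 libraries this change was -0.87 ± 0.65 (adjusted p = 0.39, edgeR quasi-likelihood test). KNG1 alone of these 2 genes was called in Ogye, where 46.1% of all tested genes were called, 21.2% as higher at 10 weeks. The ages did not overlap for 19.9%, with 10 weeks higher for 9.81%, and the fit without the 3 libraries called 14%. The age comparisons use the same 10-week libraries as the breed difference at 10 weeks.

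Ranked by its mean, BDKRB1 was highest in Cornish at 10 weeks, then in Ogye at 5 weeks, Ogye at 10 weeks and Cornish at 5 weeks. Ogye at 10 weeks and Cornish at 5 weeks did not overlap. The other neighbours did.

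**Figure D1:**
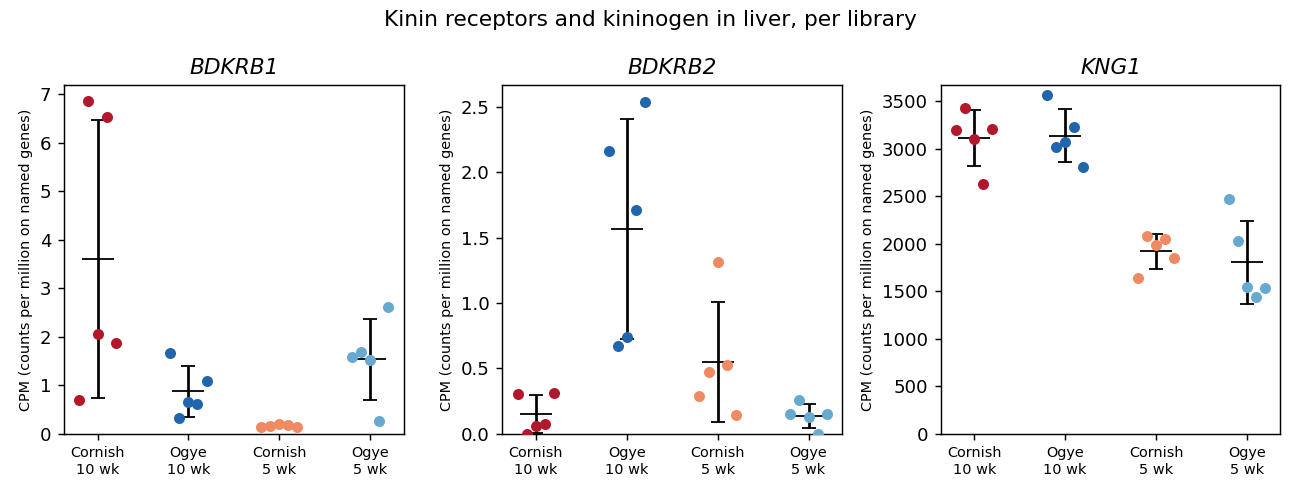
Levels of BDKRB1, BDKRB2 and KNG1 in CPM (linear axes from 0) for each library of Cornish at 10 weeks, Ogye at 10 weeks, Cornish at 5 weeks and Ogye at 5 weeks; points are libraries, the bar is the mean and the whiskers are 1 SD, cut at 0. BDKRB1 and BDKRB2 are high in different groups, and KNG1 separates the ages.

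BDKRB2 ran the other way. In Cornish at 10 weeks it had 4, 0, 1, 1 and 3 counts, or 0.307, 0, 0.0626, 0.0717 and 0.311 CPM. The 0 in replicate 2 allows up to 0.216 CPM, taking 3 counts as the floor for counting error. In Ogye at 10 weeks it had 26, 6, 10, 17 and 28 counts, or 2.17, 0.671, 0.739, 1.72 and 2.54 CPM. All Ogye libraries lay above all Cornish libraries, which is the difference that had singled BDKRB2 out. The means were 0.150 ± 0.147 CPM in Cornish and 1.57 ± 0.839 CPM in Ogye, and the fitted difference was -3.42 ± 0.71. At this age 7.65% of all tested genes were called and 12.3% did not overlap between the breeds, with Cornish lower for 5.5%.

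The 5-week libraries had no part in that choice, though with them alone neither BDKRB2 nor BDKRB1 passed the filter on low counts. There BDKRB2 had 6, 11, 27, 12 and 3 counts in Cornish, or 0.291, 0.469, 1.32, 0.529 and 0.141 CPM. In Ogye at 5 weeks it had 3, 6, 2, 0 and 2 counts, or 0.148, 0.261, 0.127, 0 and 0.149 CPM, where the 0 in replicate 4 allows up to 0.198 CPM. Replicates 1 to 4 of Cornish were above all Ogye libraries and replicate 5 was among them.

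The difference of BDKRB2 at 5 weeks was 1.87 ± 0.69 on the log2 scale, with means of 0.550 ± 0.456 CPM in Cornish and 0.137 ± 0.0927 CPM in Ogye. It did not pass the test (adjusted p = 0.061, edgeR quasi-likelihood test, 95% interval 0.44 to 3.31). DESeq2 called it (1.94, adjusted p = 0.035), as did the fit without replicate 2 of Ogye at 5 weeks (2.25, adjusted p = 0.035). With the 3 libraries left out it was 1.38 ± 0.88 (adjusted p = 0.54). The estimates at 5 weeks had the opposite sign to that at 10 weeks.

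With age the fitted change of BDKRB2 was -1.92 ± 0.73 in Cornish, where the ages overlapped, and 3.38 ± 0.68 in Ogye, where they did not. Without the 3 libraries the change in Ogye was 2.891 ± 0.895. These changes are descriptions, as they use the libraries by which the gene was chosen. By its means BDKRB2 ranked Ogye at 10 weeks, Cornish at 5 weeks, Cornish at 10 weeks and Ogye at 5 weeks, and each neighbour in this order overlapped the next.

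The breed difference at 10 weeks minus that at 5 weeks sums this up as a description. It was 5.17 ± 0.86 on the log2 scale for BDKRB1, -5.29 ± 0.99 for BDKRB2 and -0.10 ± 0.22 for KNG1. Without the 3 libraries it was 5.26 ± 0.86, -4.81 ± 1.16 and 0.21 ± 0.22. A test of this difference called 23.4% of all tested genes, and 13.6% without the 3 libraries.

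The balance between the receptors can be read within each library, free of scaling, as the share of BDKRB1 among the counts of both. In Cornish at 10 weeks BDKRB1 took 69.2%, 100%, 97.1%, 98.9% and 85.7%. In Ogye at 10 weeks it took 43.5%, 33.3%, 47.4%, 26.1% and 30%. The lowest Cornish library, replicate 1 with 13 counts, has an exact 95% binomial interval of 38.6% to 90.9%. The highest Ogye library, replicate 3 with 19 counts, has one of 24.4% to 71.1%.

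At 5 weeks the breeds had changed places. BDKRB1 took 33.3%, 26.7%, 12.9%, 25% and 50% in Cornish and 91.4%, 86.7%, 92.3%, 100% and 94.6% in Ogye. Replicate 5 of Cornish, with 6 counts, has an interval of 11.8% to 88.2%, and replicate 2 of Ogye, with 45 counts, one of 73.2% to 94.9%. The share did not overlap between the breeds at either age. At 10 weeks this is a description only, as the values that chose BDKRB2 enter the share. Intervals and floors cover counting error only, as counts without molecular identifiers can include several reads of 1 molecule. Unequal gene lengths and sequence also set the level of the share, so it does not say which receptor is the more abundant. The trend with gene length differs between libraries and is strongest in replicates 3, 4 and 5 of Ogye at 5 weeks. Replicates 1 and 2 of Ogye at 5 weeks, with correlations of 0.08 and -0.03 with gene length, had shares of 91.4% and 86.7%. The part of this trend in the shares was not tested.

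**Figure D2:**
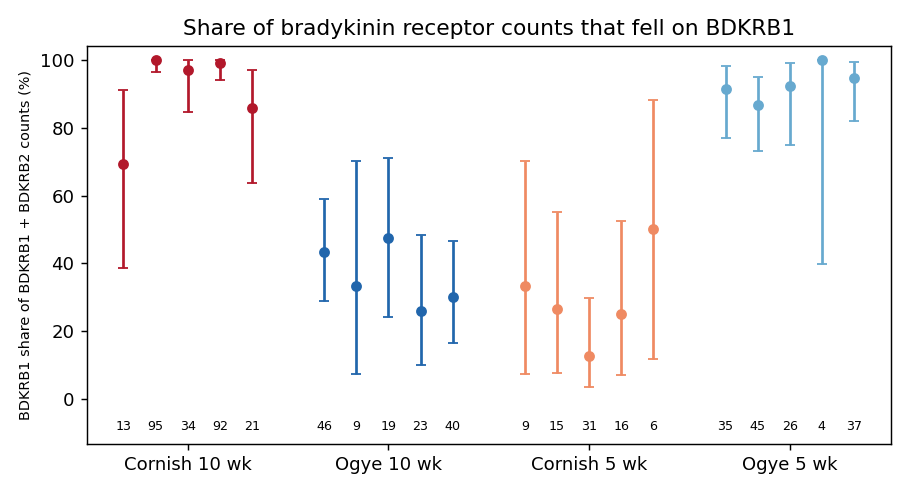
Share of BDKRB1 in the summed counts of BDKRB1 and BDKRB2, in percent, for each library, in the order Cornish at 10 weeks, Ogye at 10 weeks, Cornish at 5 weeks and Ogye at 5 weeks, replicates 1 to 5 from left to right; bars are exact (Clopper-Pearson) 95% intervals and the numbers under the points are the summed counts. Cornish at 10 weeks and Ogye at 5 weeks lie at 69.2% or more, Ogye at 10 weeks and Cornish at 5 weeks at 50% or less.

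Of the other genes within 500 kb of the receptor pair, 9 were tested. At 10 weeks 1 was called, as lower in Cornish, where 4.06% of all tested genes were called higher and 3.59% lower. That gene was PAPOLB, a poly(A) polymerase, at -0.37 on the log2 scale (adjusted p = 0.047). At 5 weeks 3 of 9 were called, each as higher, beside 19.1% of all tested genes called and 6.75% called higher, among them C14orf132, the nearest tested gene before the pair, at 2.10 (adjusted p = 0.037), and CLMN at 1.88 (adjusted p = 0.0049). PAPOLB and CLMN are named after their values were seen. The fit without the 3 libraries, added after the data were seen, called 0 of the 9 at 5 weeks by edgeR, with 4 at an unadjusted p under 0.05, and 3 at 10 weeks. That fit called 0.904% of all tested genes at 5 weeks and 17.2% at 10 weeks. In it C14orf132 was at 1.40 at 5 weeks (adjusted p = 0.50), CLMN at 1.12 (adjusted p = 0.051) and PAPOLB at 0.27 (adjusted p = 0.35). The nearest tested genes after the pair were ATG2A, at -0.25 at 10 weeks and 0.48 at 5 weeks, and GSKIP, which binds protein kinase A, at 0.01 and -0.17. None of these 4 values was called. GLRX5, the next tested gene before C14orf132, was at 0.03 and -0.02 and was not called. For 3 of the 9 genes the breed difference at 10 weeks minus that at 5 weeks was called, as negative, beside 23.4% of all tested genes called.

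**Figure D3:**
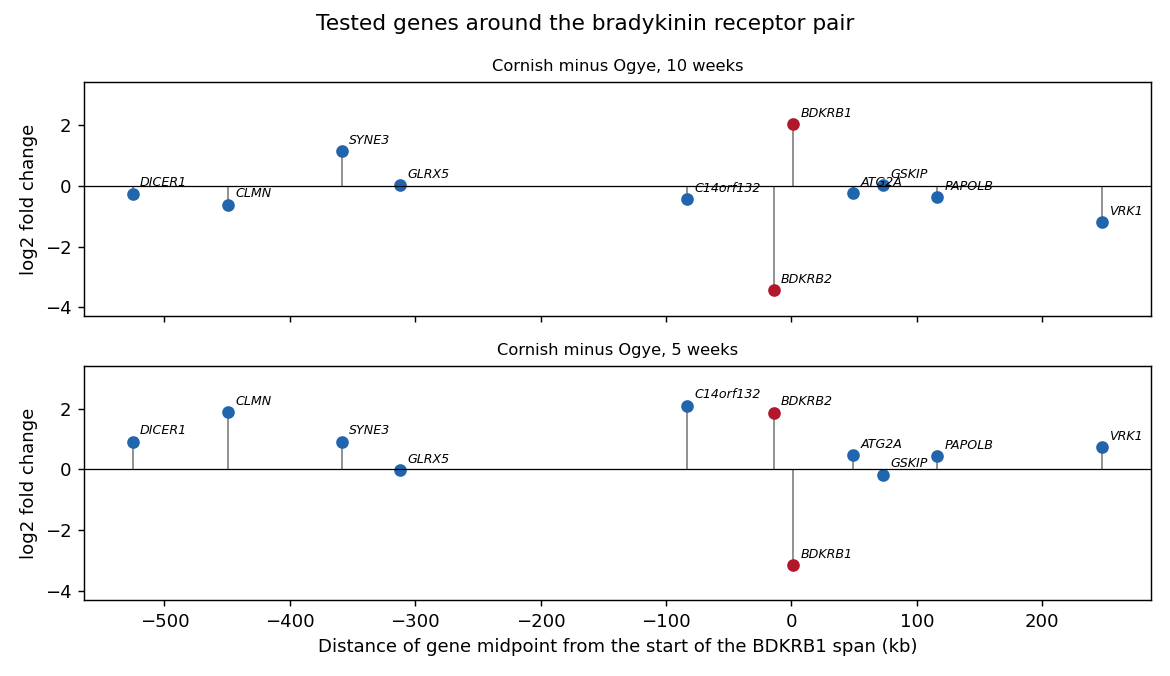
Log2 fold change of Cornish minus Ogye at 10 weeks (top) and 5 weeks (bottom) for each tested gene within 500 kb of the receptor pair, against the distance of its midpoint from the start of the BDKRB1 span in kb; red marks the receptors and blue the other genes. BDKRB1 and BDKRB2 point to opposite sides at both ages and exchange sides between them. DICER1, CLMN, C14orf132, ATG2A, PAPOLB and VRK1 have the signs of BDKRB2 at both ages, while GSKIP and GLRX5 stay near 0. SYNE3 is above 0 at both ages, at 1.135 at 10 weeks and 0.914 at 5 weeks. In the fit without the 3 libraries DICER1 and ATG2A turn at 5 weeks, to -0.152 and -0.326. CLMN, C14orf132, PAPOLB and VRK1 keep their signs in that fit. How common these signs are among all tested genes was not tested.

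KNG1 has 24 other tested genes within 500 kb. The nearest of these before it are FETUB and AHSG, the fetuins, which like kininogen belong to the cystatin family of secreted liver proteins. AHSG was higher in Cornish at 10 weeks (11790 ± 2155 CPM in Cornish against 3319 ± 2951 CPM in Ogye, 1.83 ± 0.54 on the log2 scale, adjusted p = 0.043), although this call was lost in 11 of 25 alternatives (adjusted p up to 0.11). FETUB was at 0.82 and was not called (adjusted p = 0.19). EIF4A2 and RFC4, the nearest after KNG1, were at -0.21 and -0.06 (adjusted p = 0.44 and 0.95). AHSG was the 1 gene of the 24 called at 10 weeks, beside 7.65% of all tested genes. At 5 weeks 1 of the 24 was higher and 2 were lower, beside 19.1% of all tested genes called. At that age the fit without the 3 libraries called 0 of the 24 by edgeR, with 3 at an unadjusted p under 0.05.

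Of 5 listed genes of kinin release and its control 3 were tested, namely F11, SERPING1 and PRCP. The symbols KLKB1 and F12 had no match in the count table and were not analysed here. The release of kinins itself was therefore not measured. F11, which encodes coagulation factor XI, a relative of plasma prekallikrein that circulates bound to kininogen in mammals, had the same signs as BDKRB1. It averaged 55.9 ± 5.34 CPM in Cornish and 33.0 ± 3.26 CPM in Ogye at 10 weeks, and the breeds did not overlap (0.76 ± 0.18, adjusted p = 0.015). At 5 weeks it averaged 29.3 ± 7.26 CPM in Cornish and 59.6 ± 16.7 CPM in Ogye, again without overlap (-1.03 ± 0.18, adjusted p = 0.0049). It rose with age in Cornish by 0.93 ± 0.18 (adjusted p = 0.0056) and fell in Ogye (-0.85 ± 0.18, adjusted p = 0.0011). Each of these calls held without the 3 libraries. Such a turn of sign was common, as of 246 tested genes called between the breeds at both ages 240 had opposite signs at 10 and at 5 weeks.

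SERPING1, the C1 inhibitor that restrains plasma kallikrein, averaged 568 ± 11.3 CPM in Cornish against 986 ± 363 CPM in Ogye at 5 weeks (-0.80 ± 0.22, adjusted p = 0.021). Leaving out the 3 libraries gave -0.06 (adjusted p = 0.93), and leaving out any 1 of replicates 3, 4 and 5 of Ogye at 5 weeks also ended the call. At 10 weeks its difference was 0.22 ± 0.22 (adjusted p = 0.61). PRCP, a peptidase that activates prekallikrein, was not called in any comparison, with log2 fold changes of -0.26 at 10 weeks and -0.08 at 5 weeks (0.19 at 5 weeks without the 3 libraries).

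Peptidases that break down kinins changed in both directions. Of 18 tested, 2 were higher and 1 lower in Cornish at 10 weeks, and 3 were higher and 3 lower at 5 weeks. The list's median log2 fold change was -0.01 at 10 weeks and -0.27 at 5 weeks, beside -0.03 and 0.00 over all tested genes. Among the 88 tested genes of all 6 lists used here, 15 were called at 5 weeks and 9 at 10 weeks, 17% and 10.2%, beside 19.1% and 7.65% of all tested genes. Without the 3 libraries F11 alone of these lists was called at 5 weeks by edgeR, and 21 genes were called at 10 weeks. That fit called 0.904% of all tested genes at 5 weeks and 17.2% at 10 weeks.

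CPN1 and CPB2 are carboxypeptidases that remove the last arginine of kinins and so make the form that the B1 receptor of mammals prefers. CPN1 averaged 81.8 ± 17 CPM in Cornish and 29.3 ± 4.23 CPM in Ogye at 10 weeks (1.48 ± 0.21, adjusted p = 0.00071), with no overlap. At 5 weeks it averaged 49.5 ± 11.4 CPM in Cornish and 81.6 ± 24.4 CPM in Ogye (-0.72 ± 0.20, adjusted p = 0.022). CPB2 averaged 356 ± 39.4 CPM in Cornish against 240 ± 47.3 CPM in Ogye at 10 weeks (0.57 ± 0.15, adjusted p = 0.025), and 247 ± 31.1 CPM in Cornish against 421 ± 37.0 CPM in Ogye at 5 weeks (-0.77 ± 0.15, adjusted p = 0.0064). Both lost their 5-week calls in the fit without the 3 libraries, at -0.50 (adjusted p = 0.35) for CPN1 and -0.67 (adjusted p = 0.11) for CPB2. CPN1 also lost it without replicate 4 of Ogye or replicate 3 of Cornish at 5 weeks. CPB2 lost its 10-week call when any of 4 libraries of that age was left out (adjusted p up to 0.069). These were Ogye 2, Ogye 3, Cornish 1 and Cornish 2. CPN1 was called at 10 weeks in all 25 alternatives run for list genes, which did not include limma-voom.

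With age CPN1 rose in Cornish by 0.72 ± 0.20 (adjusted p = 0.036) and CPB2 by 0.53 ± 0.15 (adjusted p = 0.039). The first call was lost in 7 of 25 alternatives, with adjusted p at most 0.092, and the second in 8, at most 0.099; the replicate block was among these 8. In Ogye both were lower at 10 weeks than at 5 weeks, at -1.48 ± 0.21 and -0.81 ± 0.15 (adjusted p = 7e-05 and 0.00041), and these calls held in all 25 alternatives. ENPEP, an aminopeptidase that acts on angiotensin, was lower in Cornish at 10 weeks (150 ± 95.3 CPM in Cornish, 394 ± 70.7 CPM in Ogye, -1.39 ± 0.38, adjusted p = 0.031), a call lost in 5 of 25 alternatives (adjusted p up to 0.083). At 5 weeks ECE1, a zinc peptidase, was higher in Cornish by 0.93 ± 0.25 (adjusted p = 0.018). It lost this call without the 3 libraries (0.69, adjusted p = 0.39) and without replicate 5 of either breed at 5 weeks. The main kinin-degrading enzymes of vessels, ACE and neprilysin (MME), did not pass the filter on low counts, though ACE passed it and was called at 10 weeks in the fit without the 3 libraries. At 10 weeks ACE averaged 0.118 ± 0.0783 CPM in Cornish against 4.12 ± 7.78 CPM in Ogye, where 1 library reached 18 CPM. At 5 weeks it averaged 0.349 ± 0.276 CPM in Cornish against 0.283 ± 0.141 CPM in Ogye. MME averaged 0.103 ± 0.128 CPM in Cornish against 0.256 ± 0.256 CPM in Ogye at 10 weeks, and 0.410 ± 0.594 CPM in Cornish against 0.0865 ± 0.0281 CPM in Ogye at 5 weeks.

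**Figure D4:**
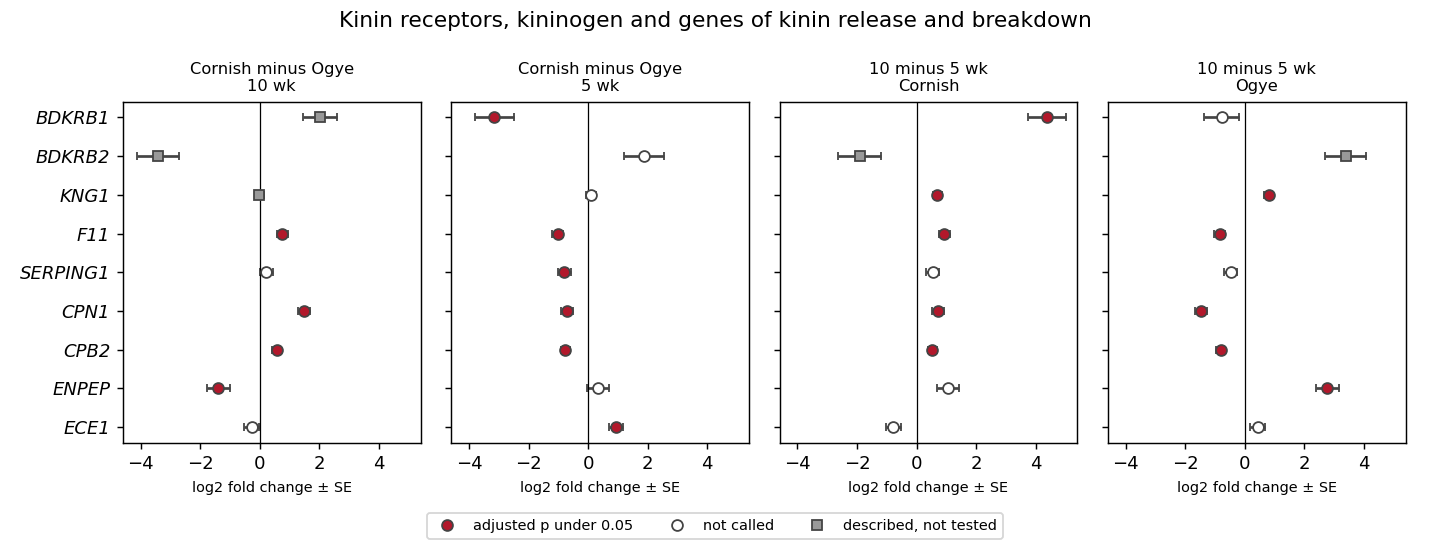
Log2 fold change ± SE of the receptors, kininogen and genes of kinin release and breakdown in Cornish minus Ogye at 10 and at 5 weeks and in 10 minus 5 weeks in Cornish and in Ogye; red circles passed an adjusted p of 0.05, open circles did not and grey squares are descriptions of genes in comparisons that had chosen BDKRB2. F11, CPN1 and CPB2 lie on the same side as BDKRB1 in each panel, and KNG1 lies near 0 between the breeds. The genes shown beside the members are a choice from those called in at least 1 comparison. PRCP, called in none, is not shown. It lay opposite to BDKRB1 at 10 weeks (-0.26) and with age in Ogye (0.23). At 5 weeks (-0.08) and with age in Cornish (0.05) it had the sign of BDKRB1. Of 246 tested genes called between the breeds at both ages, 240 had opposite signs at 10 and at 5 weeks.

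Of 27 tested genes of receptor signalling, edgeR called 0 between the breeds at 10 weeks, where 4 had an unadjusted p under 0.05, DESeq2 called 1 and limma-voom 4. Over all tested genes edgeR called 7.65% at 10 weeks, DESeq2 11.7% and limma-voom 21.4%. At 5 weeks edgeR called 19.1% of all tested genes, DESeq2 25.8% and limma-voom 56%. Of the 27, 2 were higher in Cornish at 5 weeks by edgeR, while DESeq2 called 4 and limma-voom 20. These 2 were PLCB1, a phospholipase C, at 1.27 ± 0.34 (adjusted p = 0.02), and NOS2, the inducible nitric oxide synthase, at 0.77 ± 0.26 (adjusted p = 0.043). Neither was called without the 3 libraries (0.42 and 0.27, adjusted p = 0.37 and 0.69), PLCB1 also lost its call without any 1 of those 3, and NOS2 lost its call in 14 of 25 alternatives. At 10 weeks 5 of the 27 were called when the 3 libraries were left out, beside 17.2% of all tested genes. With age 1 was higher and 3 lower in Cornish, and 5 were higher and 5 lower in Ogye, where 7.36% and 46.1% of all tested genes were called. Leaving out the 3 libraries gave 7 calls in Cornish and 4 in Ogye, beside 20.3% and 14% of all tested genes.

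Among inflammatory genes, 29 were tested. The list's median log2 fold change was -0.38 at 10 weeks and -0.62 at 5 weeks, beside -0.03 and 0.00 over all tested genes. At 10 weeks 1 was called higher and 1 lower in Cornish, beside 4.06% and 3.59% of all tested genes. The lower one was SAA, the acute phase protein serum amyloid A, at 246 ± 241 CPM in Cornish against 8383 ± 11120 CPM in Ogye (-5.09 ± 1.18, adjusted p = 0.014), with libraries that overlapped. IL1RAP, an interleukin 1 receptor subunit, was higher by 0.67 ± 0.17 (adjusted p = 0.024), a call lost in 4 of 25 alternatives (adjusted p up to 0.071). At 5 weeks 4 were called, as lower in Cornish, namely SOCS3, IL6R, IL18 and CCL4, beside 12.3% of all tested genes called lower. None of these 4 was called without the 3 libraries, where 0.904% of all tested genes were called. IL1B, which induces the B1 receptor in mammals, averaged 1.63 ± 0.833 CPM in Cornish against 0.807 ± 0.453 CPM in Ogye at 10 weeks (1.02 ± 0.44, adjusted p = 0.16). At 5 weeks it averaged 1.08 ± 0.428 CPM in Cornish against 1.87 ± 0.303 CPM in Ogye (-0.78 ± 0.40, adjusted p = 0.16).

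Of 6 genes of the angiotensin system tested, AGT, the precursor of angiotensin, and AGTR2, a receptor, were lower in Cornish at 10 weeks (-0.81 ± 0.23 and -1.94 ± 0.56, adjusted p = 0.039 and 0.041). Each of these calls was lost in 8 of 25 alternatives (adjusted p up to 0.11 and 0.18). Over all tested genes 7.65% were called at 10 weeks, 3.59% as lower in Cornish. At 5 weeks edgeR called 0 of the 6, with 2 at an unadjusted p under 0.05, while DESeq2 called 1 and limma-voom 2. Over all tested genes edgeR called 19.1% at 5 weeks, DESeq2 25.8% and limma-voom 56%.

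Markers of other cell types moved beside the receptors. The markers of heterophils, which in birds take the place of neutrophils, summed to 34.7 to 146 CPM in Cornish and 483 to 1192 CPM in Ogye at 10 weeks, and to 166 to 480 CPM in Cornish and 79.1 to 222 CPM in Ogye at 5 weeks. By their medians the groups ranked Ogye at 10 weeks, Cornish at 5 weeks, Ogye at 5 weeks and Cornish at 10 weeks. The medians of BDKRB2 had this order too (1.72, 0.469, 0.148 and 0.0717 CPM). By its means, however, Cornish at 10 weeks (0.150 CPM) came before Ogye at 5 weeks (0.137 CPM). Both of these levels rest on few counts, and the 10-week values had chosen BDKRB2. Of 10 tested heterophil markers 8 were lower in Cornish at 10 weeks, beside 3.59% of all tested genes. In the fit without the 3 libraries 11 of 12 were lower, beside 17.2% of all tested genes called either way. At 5 weeks edgeR called 0 of the 10, with 1 at an unadjusted p under 0.05, while DESeq2 called 1 and limma-voom 0. Over all tested genes edgeR called 19.1% at 5 weeks, DESeq2 25.8% and limma-voom 56%. LYG2, a lysozyme and the highest of these markers, averaged 64.3 ± 35.1 CPM in Cornish against 716 ± 267 CPM in Ogye at 10 weeks. The part of these cells in the values of BDKRB2 was not tested.

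Macrophage markers summed to 1562 to 2099 CPM in Cornish and 1180 to 1712 CPM in Ogye at 10 weeks, and to 1219 to 1614 CPM in Cornish and 1741 to 3656 CPM in Ogye at 5 weeks. At 5 weeks 6 of 8 were lower in Cornish, beside 12.3% of all tested genes. The fit without the 3 libraries called 0 of the 8 at 5 weeks, with 3 at an unadjusted p under 0.05, beside 0.904% of all tested genes called. The order of macrophage markers by medians was Ogye at 5 weeks, Cornish at 10 weeks, Cornish at 5 weeks and Ogye at 10 weeks. It has the same 2 groups on top as BDKRB1, and the part of these cells in the values of BDKRB1 was not tested.

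Endothelium and smooth muscle, where mammals carry the B2 receptor, overlapped between the breeds at both ages in their summed markers. Endothelial markers summed to 658 to 859 CPM in Cornish and 628 to 801 CPM in Ogye at 10 weeks, and to 417 to 715 CPM in Cornish and 356 to 634 CPM in Ogye at 5 weeks. Of 15 tested 1 was higher in Cornish at each age, while the fit without the 3 libraries called 3 at 10 weeks and 1, as lower, at 5 weeks. Of all tested genes 4.06% were higher in Cornish at 10 weeks and 6.75% at 5 weeks. The fit without the 3 libraries called 17.2% and 0.904% of all tested genes. Smooth muscle and stellate markers summed to 527 to 864 CPM in Cornish and 666 to 958 CPM in Ogye at 10 weeks, and to 380 to 846 CPM in Cornish and 428 to 584 CPM in Ogye at 5 weeks. At 10 weeks edgeR called 0 of 12, with 4 at an unadjusted p under 0.05, while DESeq2 called 1 and limma-voom 4. Over all tested genes edgeR called 7.65% at 10 weeks, DESeq2 11.7% and limma-voom 21.4%. At 5 weeks 1 of the 12 was higher in Cornish, and this call was lost without the 3 libraries, where 1 of 12 had an unadjusted p under 0.05. No marker of these lists was at 0 in every library of a group.

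**Figure D5:**
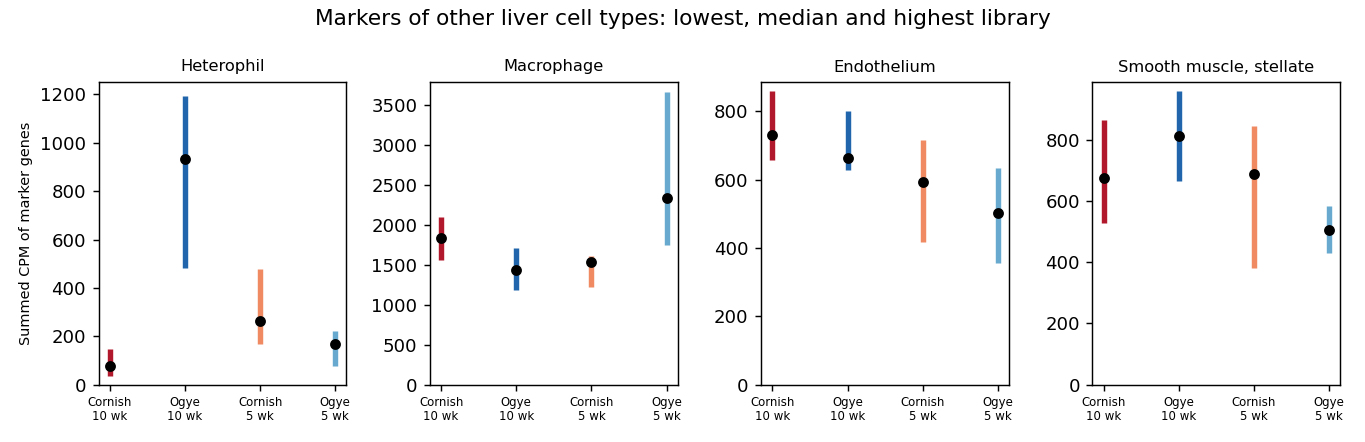
Summed CPM of the markers of 4 other cell types in Cornish at 10 weeks, Ogye at 10 weeks, Cornish at 5 weeks and Ogye at 5 weeks; lines run from the lowest to the highest of 5 libraries and dots are medians (linear axes from 0). Heterophil markers are highest in Ogye at 10 weeks and lowest in Cornish at 10 weeks.

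The genes most like each receptor were sought by Pearson correlation of log2 CPM over the 20 libraries, which share depth, breed and age, so the values are descriptions. Nearest to BDKRB1 were CERT1, a ceramide carrier (r = 0.80), SCG5 (0.80), the sulfotransferase SULT1B1 (0.76), PNAT3, an arylamine acetyltransferase (0.76), and WNT11, a secreted signal (0.75). WNT11 averaged 22.5 ± 3.03 CPM in Cornish against 5.28 ± 3.68 CPM in Ogye at 10 weeks, and 3.46 ± 3.24 CPM in Cornish against 16.2 ± 5.16 CPM in Ogye at 5 weeks. Among the nearest to BDKRB2 were ICOSLG, a ligand on antigen-presenting cells (0.80), the laminin chain LAMB3 (0.80) and the transcription factor KLF6 (0.80). LAMB3 averaged 2.15 ± 1.51 CPM in Cornish against 10.4 ± 2.92 CPM in Ogye at 10 weeks, and 3.07 ± 2.07 CPM in Cornish against 0.959 ± 0.430 CPM in Ogye at 5 weeks.

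KNG1 had closer company, with PROS1, the anticoagulant protein S (0.95), TMEM201 (0.94), UNC13B (0.94), SDR16C5, a retinol dehydrogenase (0.93), and SGMS2, a sphingomyelin synthase (0.93). PROS1 averaged 474 ± 37.5 CPM in Cornish against 523 ± 131 CPM in Ogye at 10 weeks, and 257 ± 33.5 CPM in Cornish against 208 ± 75.2 CPM in Ogye at 5 weeks. Over the 17 other libraries PROS1 and TMEM201 were again nearest to KNG1 (0.92 and 0.91), followed by PLG, the precursor of plasmin (0.91). There the nearest to BDKRB1 was PRPF6 (0.92) and the nearest to BDKRB2 was CPEB4 (0.89), so for the receptors the nearest gene depended on the 3 libraries.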

How the data were processed

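The deposited table holds the authors' raw counts per gene. The submitters' processing notes name STAR, featureCounts, FastQC, MultiQC and the build GRCg7b. Tool versions, parameters and the strand setting are not stated in the sources used. The kit was a stranded total RNA kit with depletion of ribosomal and globin RNA, per the labels. Of 54062 entries, 13956 carry a gene symbol, 40097 are assembled transcripts and 9 have no gene name (0.0126% to 0.0593% of a library). The last 2 kinds stayed out of the tests. RefSeq positions matched 12769 symbols.

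Genes were kept by filterByExpr, scaled by TMM and fitted with a mean for each of the 4 groups by robust quasi-likelihood in edgeR 4.0.16 (R 4.3.3). P-values are 2-sided and adjusted by Benjamini-Hochberg over all 10697 tested genes, with calls at 0.05. The SE is the log2 fold change divided by the square root of F. The script was tested on simulated data. No library repeats another.

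The members and gene lists were chosen with earlier results of these data known. Named list genes are up to 4 per list and comparison with the lowest adjusted p, genes of kinin release, ACE, MME and CPN1. Neighbours are the nearest 2 table genes on each side within 500 kb, similar genes the 5 highest Pearson correlations, and markers the highest of each list. Some genes these rules name are not reported here. Alternatives were other size factors, DESeq2 1.42.0, limma-voom (limma 3.58.1), other filters, a replicate block, the compared groups alone, all entries, a chromosome W covariate, and leaving out libraries.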

Additional observations from a re-analysis of the deposited data

Results flagged for a closer look

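No library of BDKRB1, BDKRB2 or KNG1 was flagged as far from the other 4 of its group by Dixon's criterion, in 12 groups of libraries screened. The criterion takes a single library at a time. It could not flag BDKRB1 in Cornish at 10 weeks, where replicates 2 and 4 were high together. In 14 named genes of the kinin lists the breed difference at 10 weeks differed from that at 5 weeks (edgeR interaction term, log2). Over all 88 tested genes of these lists 19 were called, 21.6%, beside 23.4% of all tested genes. A positive term is a shift towards Cornish at 10 weeks and need not be a larger difference. F11, for one, was at 0.76 at 10 weeks and -1.03 at 5 weeks. The term was positive for F11 (1.79, adjusted p = 0.00025), CPN1 (2.20, adjusted p = 1e-04) and CPB2 (1.34, adjusted p = 0.00051). It was also positive for SERPING1 (1.01, adjusted p = 0.024), AHSG (2.33, adjusted p = 0.03) and CST3 (0.84, adjusted p = 0.032). The same held for IL1B (1.80, adjusted p = 0.034), IL1RAP (1.01, adjusted p = 0.0073) and IL6R (1.5, adjusted p = 0.0076). The term was negative for ECE1 (-1.20, adjusted p = 0.018), PLCB1 (-1.77, adjusted p = 0.014) and NOS2 (-1.17, adjusted p = 0.028). For GRK6 (-1.08, adjusted p = 0.018) and GNAI1 (-1.20, adjusted p = 0.046) it was negative as well. Without replicates 3, 4 and 5 of Ogye at 5 weeks the calls of F11, CPN1, CPB2, PLCB1, GRK6 and IL1RAP held, while those of the 8 others were lost.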

How the results depend on the processing

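For the members, 202 of 207 alternative values kept their direction and their side of the threshold in the tested comparisons. DESeq2 called BDKRB2 at 5 weeks (1.94), limma-voom called KNG1 there (0.33, adjusted p = 0.034), and without replicates 3, 4 and 5 of Ogye at 5 weeks the rise of KNG1 in Ogye was not called (0.49) and its difference at 5 weeks turned to -0.227. The difference of KNG1 between the breed effects moved to -0.38 by limma-voom and to 0.21 without these 3 libraries. The causes were not tested. With 1 library left out, BDKRB1 at 5 weeks ranged from -3.41 to -2.89 and stayed called, BDKRB2 at 5 weeks from 1.28 to 2.25, KNG1 at 5 weeks from 0.02 to 0.22, and KNG1 with age from 0.66 to 0.75 in Cornish and 0.73 to 0.93 in Ogye.

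Counts over the kinin lists moved more. Without the 3 libraries 1 gene was called at 5 weeks in place of 15, 21 at 10 weeks in place of 9, 18 with age in Cornish in place of 9 and 13 with age in Ogye in place of 31, and DESeq2 called 15 with age in Cornish. The shares of all tested genes moved the same way in the fit without the 3 libraries. They were 0.904% in place of 19.1% at 5 weeks and 17.2% in place of 7.65% at 10 weeks. With age they were 20.3% in place of 7.36% in Cornish and 14% in place of 46.1% in Ogye. DESeq2 called 12.6% of all tested genes with age in Cornish. With 1 library left out the counts ranged from 4 to 30 at 5 weeks, 3 to 13 at 10 weeks, 4 to 12 with age in Cornish and 23 to 42 with age in Ogye. Over all tested genes the shares called then ranged from 6.37% to 36.6% at 5 weeks and from 4.27% to 9.29% at 10 weeks. With age they ranged from 3.52% to 9.72% in Cornish and from 36.6% to 54.3% in Ogye. Without the 3 libraries IL6R at 5 weeks turned to 0.029 (adjusted p = 0.97), PRCP at 5 weeks to 0.192 and SERPING1 with age in Ogye to 0.271. With 1 library left out PRCP at 5 weeks ranged from -0.174 to 0.03, positive without replicate 4 of Ogye. The replicate block changed no call of the members (BDKRB1 at 5 weeks -3.13, adjusted p = 0.017) and gave 13 list genes at 5 weeks. Replicate numbers were not taken as pairs, as 7 of 30 same-numbered pairs correlated above 0.1 in their deviations (-0.24 to 0.278) and 3 of 20 libraries correlated best with their own number. BDKRB2 gave no value under the stricter filter or, but for the interaction, with the compared groups alone, nor BDKRB1 at 5 weeks with these alone. With the 5-week groups alone 0.528% of tested genes were called at 5 weeks, beside 19.1% in the fit of all libraries. With 3 to 39 counts of BDKRB1 and 0 to 27 of BDKRB2 per library at 5 weeks, depth limits both.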

Other observations

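Among 8418 assembled entries with a mean of at least 5 counts, the one most correlated with BDKRB2 over the 20 libraries (r = 0.93, log2 CPM plus 0.1) stood at 0 to 0.691 CPM in Cornish and 1.45 to 7.44 CPM in Ogye at 10 weeks, and at 0.796 to 3.17 CPM in Cornish and 0.295 to 0.695 CPM in Ogye at 5 weeks. The breeds did not overlap for this entry at either age, beside 12.3% of tested named genes at 10 weeks and 6.85% at 5 weeks. As it was picked for following BDKRB2 in these same libraries, its separation is a description and adds no evidence for that of BDKRB2. The one most correlated with BDKRB1 (r = 0.85) stood at 0.461 to 2.02 CPM in Cornish and 0 to 0.999 CPM in Ogye at 10 weeks, and at 0 to 0.0971 CPM in Cornish and 0.0661 to 0.695 CPM in Ogye at 5 weeks. The table gives no positions for these entries, so whether they share reads with the receptors was not tested.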
